A study of Homo sapiens with 6 samples.

Results

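The tubulin isotypes are the products of separate genes for α-tubulin and β-tubulin, and 10 of them were taken from the raw count table by gene symbol: TUBA1A, TUBA1B, TUBA1C and TUBA4A for α-tubulin, and TUBB, TUBB2A, TUBB2B, TUBB3, TUBB4B and TUBB6 for β-tubulin. They are 10 of the 36458 symbols in the table. The rule goes by symbol alone and sets no threshold on a measured value. TUBB4A, a further β-tubulin gene, was not among the symbols chosen and is described with the other tubulins.

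RNA-seq was made from DMS114, an established small cell lung cancer cell line. One group of 3 libraries came from cells given β-alanine at 2.5 mM for 48 h, and the other group of 3 came from cells given vehicle in the same volume. β-Alanine is a non-protein amino acid, the precursor of carnosine and a building block of coenzyme A. The series title links it to STMN2, the gene of a protein that binds tubulin, and to the invasion of neuronal tissue. All 6 libraries come from 1 cell line, for which the labels name no genetic change, and the labels do not say whether the libraries of a group came from separate cultures. The p-values therefore measure only the spread between these libraries, which may be technical.

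α-Tubulin and β-tubulin join into dimers that polymerise into microtubules, the hollow filaments of the mitotic spindle, the cilium and the neurite. The isotypes of each kind differ most in their acidic carboxy-terminal tails, where modifying enzymes and motors act. TUBB3 and TUBB2B are known from neurons, while TUBB, TUBA1B and TUBB4B are made in most dividing cells. Cells also hold tubulin mRNA in check through autoregulation: when free dimers are plentiful, TTC5 recognises the first residues of a tubulin chain leaving the ribosome and the mRNA is degraded with the help of the CCR4-NOT deadenylase.

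The start of the coding region is shown because it encodes the residues that TTC5 reads. Each line holds the first 12 coding bases of a member's principal transcript in GENCODE 29 (GRCh38), 5′ to 3′, with the start codon in capitals.
TUBA1A: ATGcgtgagtgc
TUBA1B: ATGcgtgagtgc
TUBA1C: ATGcgtgagtgc
TUBA4A: ATGcgtgaatgc
TUBB: ATGagggaaatc
TUBB2A: ATGcgcgagatc
TUBB2B: ATGcgtgagatc
TUBB3: ATGagggagatc
TUBB4B: ATGagggaaatc
TUBB6: ATGagggagatc

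The TUBA1 copies share these 12 bases, and so do TUBB with TUBB4B and TUBB3 with TUBB6. The far end of the coding region encodes the carboxy-terminal tail. The last 63 coding bases are shown for TUBB2A and TUBB2B, the most alike pair of β-tubulins, with the positions that differ in capitals.
TUBB2A: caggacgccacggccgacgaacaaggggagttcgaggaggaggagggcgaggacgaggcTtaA
TUBB2B: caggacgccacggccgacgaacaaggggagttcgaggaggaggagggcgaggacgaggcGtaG

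TUBB2A and TUBB2B differed at 2 of these bases, and by the standard genetic code neither difference changes the residue or the stop encoded. Over the whole coding region TUBB2A and TUBB2B were 98.1% identical, with 25 of 1338 aligned bases differing. TUBA1A was 97.2% identical to TUBA1B and 95.9% identical to TUBA1C, and TUBA1B was 96.8% identical to TUBA1C. TUBB, the most abundant β-tubulin here, was 84.7% identical to each of TUBB2A and TUBB2B.

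These copies bear on every count below. Of all windows of 50 bases along the principal transcript, 87.1% in TUBA1B and 51.8% in TUBA1A were also present, base for base, in a transcript of another annotated gene. For TUBB2A the share was 65.5% and for TUBB2B 52.2%, mostly with each other. TUBB3 had 89.4%, mostly with AC092143.1, an annotated gene whose exons overlap its own. TUBB had 30.8%, TUBB4B 14.6% and TUBB6 0.993%. With windows of 100 bases the shares were 71.1% for TUBA1B, 26.6% for TUBA1A, 56.4% for TUBB2A and 46.2% for TUBB2B. Neither the read length nor the handling of reads that map to several places is stated in the labels, so the counts of the TUBA1 and TUBB2 copies and of TUBB3 are uncertain one by one.

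**Figure D1:**
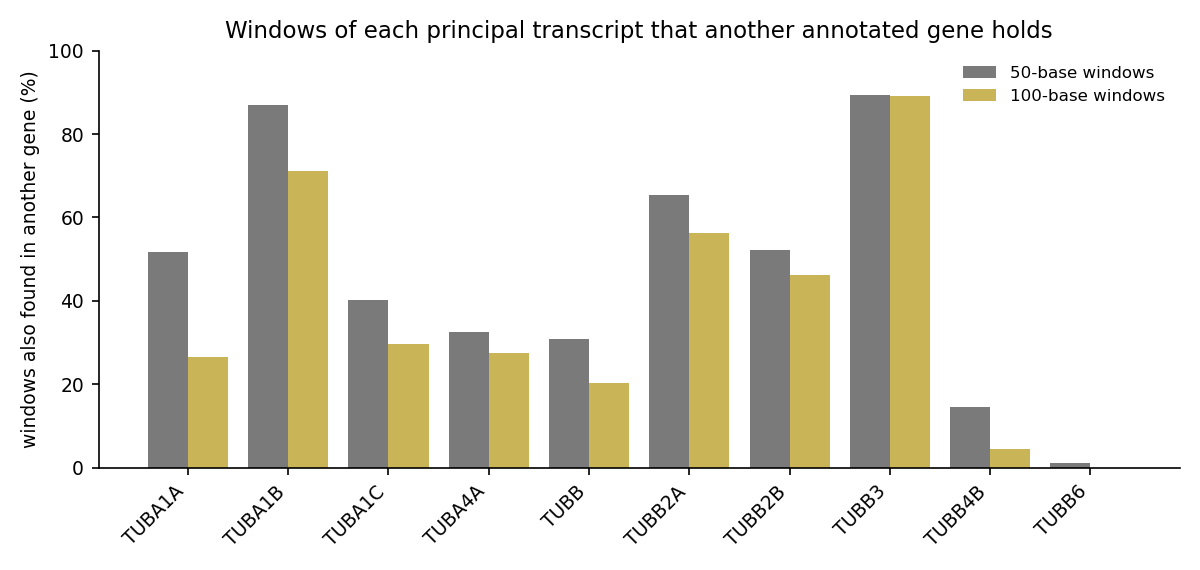
Share of the 50-base (grey) and 100-base (yellow) windows of each member's principal transcript, in percent, that also occur in a transcript of another gene of GENCODE 29. TUBB3 and TUBA1B share most of their windows, and TUBB6 shares 0.993% at 50 bases and 0 at 100.

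The total count was 14433801 to 32909568 in the β-alanine libraries and 18814876 to 22072654 in the controls. Across all genes, 27.9% of 17331 tested were called, 14.1% higher and 13.8% lower with β-alanine (edgeR's quasi-likelihood test, Benjamini-Hochberg adjusted p under 0.05). β-Alanine library 1, the shallowest, stood apart: its first principal component score was -9.13, against -23.5 and -23.6 for the other β-alanine libraries and 16.7 or more for each control. YAP1, the marker of one small cell lung cancer subtype, was present at 119 to 133 CPM, which are counts scaled to a common library total, while POU2F3 and INSM1 were both under 1 CPM. Other neuroendocrine markers were present: SYP rose from 61.0 ± 4.23 to 86.3 ± 4.26 CPM (SD, n = 3) and CHGA from 19.6 ± 2.06 to 28.8 ± 2.41, ENO2 was at 99.1 and 95.6 CPM and not called, and NCAM1 fell from 2.32 to 1.48 CPM. The epithelial keratin KRT18 rose from 8.11 to 11.9 CPM. It was the only epithelial marker called: EPCAM was at 0.926 CPM in controls and 1.05 with β-alanine and was not called. KRT8 and CDH1 were under 1 CPM and too low to test. Markers of endothelial cells, blood cells and platelets summed to under 1 CPM in each library. The fibroblast markers were all detected (5 of 5), at a summed 882 to 982 CPM with β-alanine and 1118 to 1161 CPM in controls, and 3 of them fell. Most of this sum was COL3A1, which fell from 876 to 692 CPM, and DCN, which fell from 191 to 159 CPM. COL1A1 fell from 11.4 to 9.19 CPM, and LUM and PDGFRA were not called. All libraries come from 1 cell line, so these values were not read as a separate cell type. In bulk RNA, fewer cells of a type and less RNA per cell cannot be told apart.

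Of the 10 tubulin genes, TUBB and TUBA1B fell with β-alanine and TUBB2A and TUBB2B rose. The changes were small. TUBB, the leading β-tubulin, fell from 1734 ± 59.5 to 1456 ± 110 CPM (SD, n = 3), and TUBB2A, a far scarcer β-tubulin, rose from 21.5 ± 1.02 to 28.1 ± 1.09 CPM. The other 6 members did not pass the test. The 4 called of 10 stand beside 27.9% called of all tested genes (14.1% higher, 13.8% lower), and with 10 members the difference between these shares was not read as a result. The median log2 fold change was -0.02 over the members and -0.00 over all tested genes, and 0.28 was the median size of the change among called genes. In 2 members all 3 β-alanine libraries lay above all 3 controls and in 1 they lay below, against 19.9% and 19.2% of all tested genes. In the other 7 the groups overlapped.

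In the controls the order of levels per length, in CPM per kilobase of exon, was led by TUBB at 516 ± 17.7 and TUBA1B at 304 ± 6.04 (SD, n = 3). TUBA1A followed at 111 ± 4.36, TUBB4B at 66.4 ± 0.992, TUBA1C at 58.1 ± 1.81 and TUBB2B at 39.3 ± 2.58. TUBB6 was at 14.4 ± 0.497 and TUBB2A at 12.5 ± 0.593. The lowest levels were TUBB3 at 0.651 ± 0.0828 and TUBA4A at 0.155 ± 0.0412. Each gene's 3 control libraries lay wholly above those of the gene next in this order. The order rests on the exonic length used, 4631 bases for TUBA1C and 2111 for TUBB4B. With the longest annotated transcript instead (3001 and 2035 bases), TUBA1C would stand above TUBB4B. By these counts the neuron-associated TUBB3 was a minor isotype at the RNA level, and TUBB2B was the more abundant of the neuron-associated pair. Most TUBB3 windows (89.4% at 50 bases) are shared, mainly with AC092143.1. Reads of TUBB3 may therefore have been lost or counted elsewhere, and its level is uncertain.

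**Figure D2:**
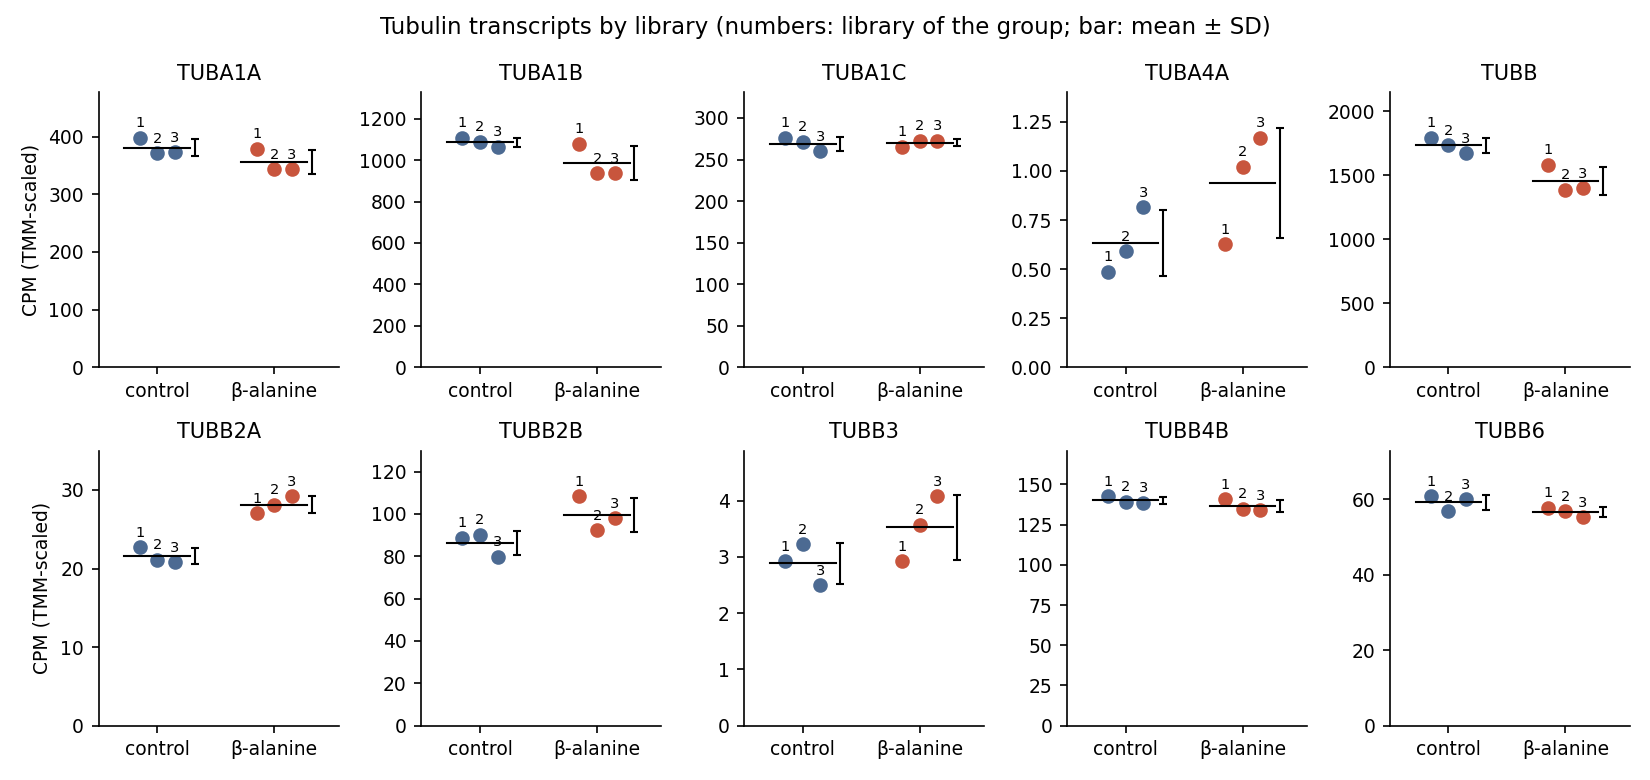
CPM of each member on its own linear axis from 0, with a numbered point for each of the 3 control (blue) and 3 β-alanine (red) libraries, a line at the mean and a bar for the SD (n = 3). The groups are fully separated for TUBB, TUBB2A and TUBB2B and overlap for the other 7 members.

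TUBB, on chromosome 6 at chr6:30720352-30725422 (GRCh38.p14, plus strand), encodes the β-tubulin of most dividing cells. Its levels were 1584, 1389 and 1397 CPM in β-alanine libraries 1 to 3 and 1792, 1737 and 1673 CPM in controls 1 to 3. All β-alanine libraries were below all controls, library 1 the nearest to them. It fell by 0.25 ± 0.05 on the log2 scale (edgeR quasi-likelihood, Benjamini-Hochberg adjusted p = 0.000455).

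TUBB2A and TUBB2B lie near each other on the minus strand of chromosome 6, at chr6:3153666-3157544 and chr6:3224277-3227653. TUBB2A read 27.0, 28.1 and 29.2 CPM with β-alanine and 22.7, 21.1 and 20.8 CPM in controls. The β-alanine libraries were all higher, with a gap wider than the range within either group. The log2 fold change was 0.39 ± 0.07 (edgeR quasi-likelihood, Benjamini-Hochberg adjusted p = 0.00022). TUBB2B read 108, 92.2 and 98.1 CPM with β-alanine and 88.8, 90.2 and 79.8 CPM in controls. Here the second β-alanine library lay only just above the control libraries, and control 3 was the lowest. The log2 fold change of TUBB2B was 0.20 ± 0.06 (edgeR quasi-likelihood, Benjamini-Hochberg adjusted p = 0.0147), and without control 3 it was 0.14 and not called (adjusted p = 0.102). Since reads can pass between these copies, their counts were also summed: the sum rose by 0.24 on the log2 scale (edgeR quasi-likelihood, Benjamini-Hochberg adjusted p = 0.00107).

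A promoter each of TUBB2A, TUBB2B and TUBB is shown because these genes moved in opposite directions. Each is the 250 bases before a RefSeq start in GRCh38.p14, 5′ to 3′ on the strand of the gene, with motif matches in capitals. The motifs were sought on both strands and could overlap. They were the TATA box (letters TATAAA), the CCAAT box (its own letters) and the GC box, written GGGCGG. The cAMP response element was sought as TGACGTCA. The E2F site was sought as TTTGGCGC. The AP-1 site was sought as TGANTCA.
TUBB2A, chr6:3157545-3157794, minus strand: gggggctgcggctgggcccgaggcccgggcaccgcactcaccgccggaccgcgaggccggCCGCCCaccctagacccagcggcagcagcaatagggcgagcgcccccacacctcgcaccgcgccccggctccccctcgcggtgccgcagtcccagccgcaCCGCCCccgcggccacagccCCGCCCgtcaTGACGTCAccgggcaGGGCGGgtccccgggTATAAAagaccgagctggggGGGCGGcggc
TUBB2B, chr6:3227654-3227903, minus strand: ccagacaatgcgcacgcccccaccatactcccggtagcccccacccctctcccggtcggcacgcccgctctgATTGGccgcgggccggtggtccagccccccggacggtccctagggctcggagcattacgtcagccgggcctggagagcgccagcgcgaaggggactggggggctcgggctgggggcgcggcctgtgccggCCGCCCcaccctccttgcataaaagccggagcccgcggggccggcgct
TUBB, chr6:30720102-30720351, plus strand: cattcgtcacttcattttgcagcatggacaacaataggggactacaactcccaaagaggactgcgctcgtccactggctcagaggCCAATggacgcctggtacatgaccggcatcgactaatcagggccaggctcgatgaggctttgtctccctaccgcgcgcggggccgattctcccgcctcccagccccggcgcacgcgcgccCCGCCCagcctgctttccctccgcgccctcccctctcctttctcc

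The TUBB2A window held a TATA box at -30 and a cAMP response element at -60 from the start, with 5 GC boxes. The TUBB2B window held a CCAAT box at -178 and a GC box at -48. The TUBB window shown held a CCAAT box at -165 and a GC box at -45. A second TUBB promoter in the RefSeq table, chr6:30721388-30721637, held 5 GC boxes and no match to the other 5 motifs. Of 35116 RefSeq promoters of the same length, 10.7% held the TATA letters, 1.65% the cAMP response element, 32.0% the CCAAT box and 42.6% the GC box. The AP-1 letters were in 6.57% and the E2F letters in 0.550%, and these windows of TUBB, TUBB2A and TUBB2B held neither. Every member had at least 1 of the 15 promoters matched. These are letter matches only, and no binding was measured.

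The 3 TUBA1 genes form a cluster on chromosome 12. TUBA1B, the most abundant of them (chr12:49127782-49131395), read 1078, 936 and 937 CPM with β-alanine and 1107, 1088 and 1064 CPM in controls. β-Alanine library 1 lay inside the control range and the other 2 lay below it. TUBA1B fell by 0.14 ± 0.05 on the log2 scale (edgeR quasi-likelihood, Benjamini-Hochberg adjusted p = 0.0271). That call was lost without β-alanine 2, β-alanine 3, control 1 or control 2 (adjusted p 0.101 to 0.154). TUBA1A (chr12:49184795-49189080), known from developing neurons, read 379, 344 and 344 CPM with β-alanine and 398, 371 and 373 CPM in controls, again with library 1 inside the control range. Its log2 fold change of -0.10 ± 0.04 was not called (edgeR quasi-likelihood, Benjamini-Hochberg adjusted p = 0.0824); without β-alanine 1 it was -0.15 and called (adjusted p = 0.000566). TUBA1C (chr12:49227926-49274600) read 265, 273 and 272 CPM against 276, 271 and 260 CPM, with a log2 fold change of 0.01 ± 0.04. Summed over the copies, the TUBA1 reads gave a log2 fold change of -0.11 (edgeR quasi-likelihood, Benjamini-Hochberg adjusted p = 0.0465). In that sum the reads of the 3 copies need not be told apart. Reads dropped for mapping to several places, or shared with AC011603.2 and TUBAP2, may still be missing from it. The 3 copies held 99.96% of the α-tubulin CPM in controls, so this is nearly the α-tubulin sum given below, whose libraries overlapped.

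TUBA4A (chr2:219249710-219254740, minus strand) is an α-tubulin best known from platelets. It was counted 9, 28 and 39 times with β-alanine and 9, 13 and 16 times in controls. That is 0.627, 1.02 and 1.17 CPM against 0.487, 0.591 and 0.816 CPM, and the groups overlapped. Its log2 fold change was 0.65 ± 0.32 and did not pass (edgeR quasi-likelihood, Benjamini-Hochberg adjusted p = 0.131). Its exons overlap those of STK16 and TUBA4B on the opposite strand. Strand use is not stated, so whether their reads were kept apart is unknown.

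TUBB3 (chr16:89921925-89936097), the β-tubulin marker of neurons, was counted 42, 98 and 136 times with β-alanine and 54, 71 and 49 times in controls. In CPM the values were 2.92, 3.57 and 4.08 against 2.92, 3.23 and 2.50. β-Alanine libraries 2 and 3 were above every control, and library 1 was level with control 1. The log2 fold change of 0.32 ± 0.17 did not pass the test (edgeR quasi-likelihood, Benjamini-Hochberg adjusted p = 0.16).

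TUBB4B and TUBB6 moved least among the β-tubulins. TUBB4B (chr9:137241287-137243707), a broadly expressed β-tubulin also used in cilia, read 141, 135 and 134 CPM with β-alanine and 143, 139 and 139 CPM in controls, for a log2 fold change of -0.04 ± 0.04. TUBB6 (chr18:12307669-12329826), a divergent β-tubulin that shares almost none of its sequence windows with the others, read 57.8, 56.9 and 55.2 CPM against 60.8, 56.9 and 60.0 CPM, for -0.07 ± 0.05. Both sets of libraries overlapped, and neither passed the test (edgeR quasi-likelihood, Benjamini-Hochberg adjusted p = 0.511 and 0.345).

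**Figure D3:**
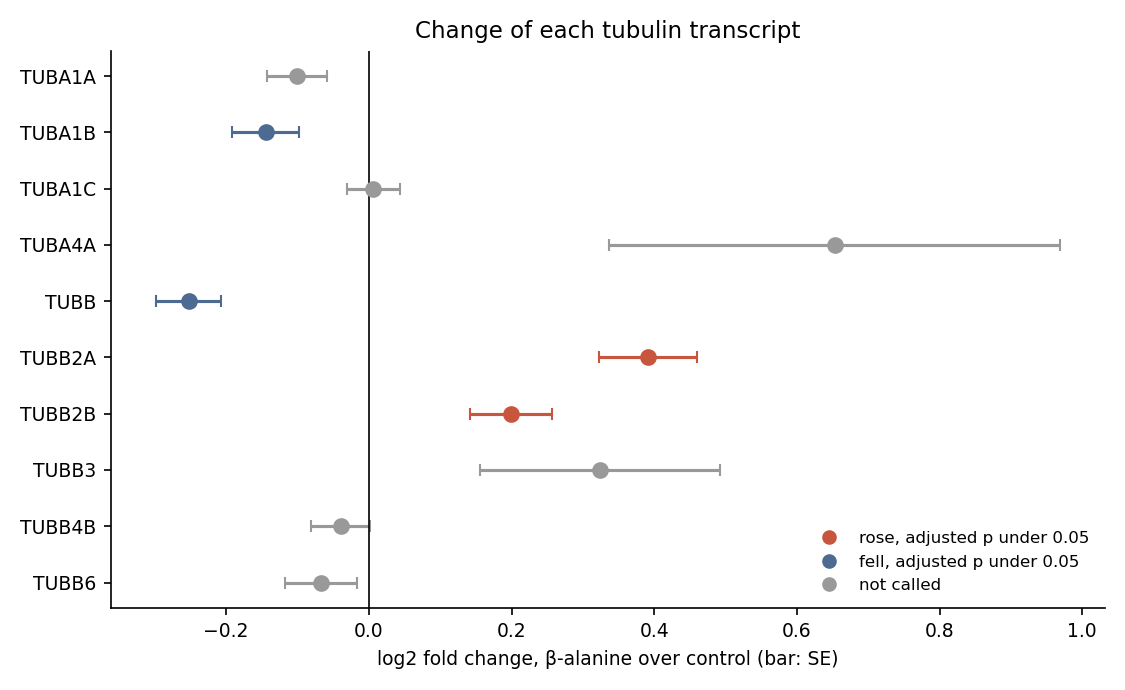
Log2 fold change of β-alanine over control for each of the 10 members (red rose, blue fell, grey not called), with bars for the standard error. TUBB (-0.25) and TUBA1B (-0.14) lie below 0 and were called, TUBB2A (0.39) and TUBB2B (0.20) lie above 0 and were called, and TUBA4A and TUBB3 have the widest errors.

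The summed CPM of the β-tubulin members fell from 2044 ± 67.5 to 1781 ± 121 (SD, n = 3), a log2 difference of -0.20. The sums were 1921, 1704 and 1717 CPM with β-alanine and 2110, 2048 and 1975 CPM in controls, so the groups did not overlap. An exact two-sided permutation test over the 6 libraries gave p = 0.1, the smallest that 3 against 3 can give. The α-tubulin sum was 1610 ± 98.3 against 1737 ± 42.1 CPM, with overlapping libraries (log2 difference -0.11, exact permutation p = 0.2). All 10 members together were at 3391 ± 220 against 3781 ± 109 CPM (log2 difference -0.16, exact permutation p = 0.1). As a share of all counts they took 0.363, 0.327 and 0.332% with β-alanine and 0.383, 0.376 and 0.367% in controls.

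Within the β-tubulin pool, per length, TUBB held a smaller share with β-alanine. It made up 76.3, 75.1 and 74.9% of the pool with β-alanine and 79.6, 79.4 and 79.4% in controls, a difference of -4.04 percentage points. The shares of TUBB2B (7.89 against 6.05%), TUBB4B (11.3 against 10.2%) and TUBB2A (2.84 against 1.92%) were higher in all 3 β-alanine libraries. Each of these 4 differences had an exact two-sided permutation p = 0.1, the smallest possible, and 0.25 after Benjamini-Hochberg adjustment over the 10 shares. The shares of a pool are tied to each other, since a smaller share of TUBB raises those of the other members. The share of TUBB4B was higher although its own level did not rise. That level was 137 CPM with β-alanine and 140 CPM in controls and did not pass the test. TUBB3 was at 0.10% of the pool in controls and 0.140% with β-alanine, and TUBB6 at 2.22 and 2.40%, both with overlapping libraries (exact permutation p = 0.2).

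In the α-tubulin pool TUBA1B held 62.8% with β-alanine and 64.2% in controls, TUBA1A 23.7 and 23.5%, and TUBA1C 13.4 and 12.3%. TUBA4A held 0.0533 and 0.0328%. The libraries of the groups overlapped for every α-tubulin share (exact permutation p from 0.2 to 0.6).

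**Figure D4:**
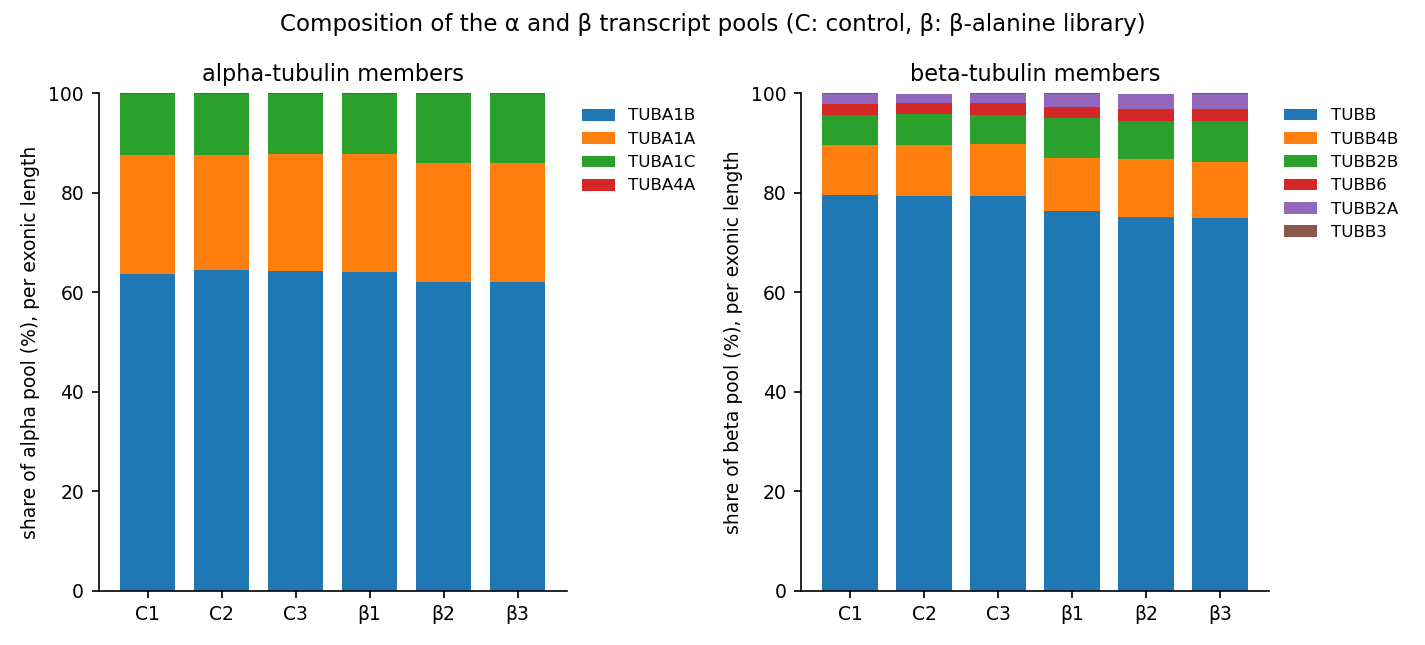
Share of each member in the summed CPM per kilobase of the α-tubulin or β-tubulin pool, in percent, as a stacked bar for each control (C) and β-alanine (β) library. The TUBB segment is lower in all 3 β-alanine libraries, at 74.9 to 76.3% against 79.4 to 79.6%, and the segments of TUBB2A, TUBB2B and TUBB4B are taller.

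Genes of the cell cycle moved in the same libraries. Of 14 S phase genes 9 fell and 5 were not called, with a median log2 fold change of -0.31. Of 13 mitosis genes 1 rose and 6 fell, with a median of -0.14. Over all tested genes 14.1% rose and 13.8% fell. The mean log2 difference from the controls over the S phase genes was -0.08, -0.35 and -0.36 in β-alanine libraries 1 to 3, and over the mitosis genes -0.02, -0.20 and -0.16. TUBB and TUBA1B were likewise nearest to the controls in β-alanine library 1. That library was also the nearest to the controls over all tested genes, with a first principal component score of -9.13 against -23.5 and -23.6. The part of the cell cycle genes, of the fibroblast and neuroendocrine markers that changed, and of KRT18, in the tubulin results was not tested.

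The genes most alike in pattern to the summed members, by Pearson r over the 6 libraries among 13842 genes, were CACNG7 (r = 0.997), GNAS (0.997) and TPPP3 (0.997). Those most like TUBB3 were ETFA (r = 0.992), HCG25 (0.990) and TOLLIP (0.985). Treatment and depth both differ among these 6 libraries, so these values are a description only.

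Around the members, 123 tested genes from 8 lists of microtubule biology were described: 17 rose and 30 fell, which is 38.2% called beside 27.9% of all tested genes, with a median log2 fold change of -0.02. Without β-alanine 2 the counts were 11 and 19, and the share called of all tested genes was 17.0%. In the list of other tubulins 6 genes were tested, 1 rose and 1 fell. TUBE1, ε-tubulin of the centriole, fell by 0.48 ± 0.08 on the log2 scale and TUBD1, δ-tubulin, rose by 0.18 ± 0.06. The TUBD1 call was lost when any library but β-alanine 1 was left out (edgeR quasi-likelihood, Benjamini-Hochberg adjusted p 0.0515 to 0.132), and with DESeq2 (adjusted p = 0.0511). TUBB4A, the β-tubulin of oligodendrocytes and neurons, was at 78.6 ± 2.66 against 76.2 ± 1.63 CPM (SD, n = 3) and was not called. γ-Tubulin TUBG1 was not called either (0.02 ± 0.05).

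Tubulin chains are folded by prefoldin and the CCT chaperonin and then by cofactors A to E. Of 21 tested folding genes 7 rose and 3 fell, with a median log2 fold change of 0.07. Without β-alanine 2, 4 rose, and 17.0% of all tested genes were called against 27.9% in the main fit. The 6 prefoldin subunits gave 3 that rose and 1 that fell, the 8 CCT subunits 3 and 1, and the 5 cofactors 1 and 1. PFDN4 rose by 0.50 ± 0.05 and PFDN2 by 0.20 ± 0.04, while PFDN5 fell by 0.30 ± 0.04 and the chaperonin subunit CCT7 fell by 0.25 ± 0.04. Members of the same complexes thus passed the test in both directions. TBCA, the cofactor that holds β-tubulin, was not called (0.07 ± 0.04).

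Of 12 tested autoregulation genes 1 rose and 2 fell. TTC5, the reader of the nascent tubulin chain, was at 9.82, 10.8 and 10.2 CPM with β-alanine and 13.6, 13.6 and 11.9 CPM in controls. The groups did not overlap, and control 3 was the nearest to the β-alanine libraries. TTC5 fell by 0.34 ± 0.09 (edgeR quasi-likelihood, Benjamini-Hochberg adjusted p = 0.0101), a call lost without control 2 (adjusted p = 0.0647). The deadenylase subunit CNOT2 fell by 0.20 ± 0.05 and CNOT11 rose by 0.13 ± 0.05, the latter call being lost when any library but β-alanine 1 was left out (edgeR quasi-likelihood, Benjamini-Hochberg adjusted p 0.0959 to 0.235) and with DESeq2 (adjusted p = 0.077). Without β-alanine 1, 5 of the 12 fell, and without control 2 only CNOT2 did. Over all tested genes the share called moved too, to 36.2% without β-alanine 1 and 17.5% without control 2, against 27.9% with all libraries.

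Tubulin modifying enzymes add or remove groups, many of them on the carboxy-terminal tails. Of 23 tested 2 rose, SVBP and SIRT2, and 7 fell. SIRT2 is a deacetylase of α-tubulin, a change away from the tail. SVBP, the partner of the vasohibins that remove the terminal tyrosine of α-tubulin, rose from 14.8 ± 0.557 to 20.4 ± 0.242 CPM, while the vasohibin VASH2 fell by 0.43 ± 0.08. KIAA0895L, another enzyme of that kind, fell by 0.42 ± 0.08, the polyglutamylase subunit TPGS2 by 0.30 ± 0.05, and TTL, which puts the tyrosine back, by 0.22 ± 0.05. Only 1 of the 23 rose with DESeq2, and likewise without β-alanine 2, β-alanine 3, control 1 or control 2. In these fits 17.0 to 21.5% of all tested genes were called, against 27.9% in the main fit.

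Of 22 tested genes of γ-tubulin nucleation 3 rose and 8 fell, with a median log2 fold change of -0.11. TUBGCP3, a core subunit of the γ-tubulin ring complex, fell by 0.47 ± 0.06, while TUBGCP4 rose by 0.21 ± 0.05, the augmin subunit HAUS2 by 0.39 ± 0.05 and NEDD1, which anchors the ring complex, by 0.22 ± 0.05. The number that fell was 1 without β-alanine 2, 4 without β-alanine 3 or control 1, 3 without control 2 and 5 without control 3. It was 5 with DESeq2 and 5 with library totals in place of TMM. Over all tested genes the share called was 17.0% without β-alanine 2, 18.9% without β-alanine 3 and 20.7% without control 1. It was 17.5% without control 2, 21.3% without control 3, 21.5% with DESeq2 and 28.2% with library totals, against 27.9% in the main fit.

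Of 21 structural microtubule-associated proteins 1 rose and 4 fell. MAP1B, abundant in growing neurites, rose by 0.22 ± 0.04, while DCLK2 fell by 0.36 ± 0.06, EML1 fell by 0.26 ± 0.06 and EML4 fell by 0.17 ± 0.04. Of 12 plus-end proteins 2 fell and 10 were not called; CLASP2 fell by 0.23 ± 0.04 and the dynactin subunit DCTN1 by 0.22 ± 0.05. Of 8 severing genes 2 rose and 3 fell: the katanin subunit KATNA1 rose by 0.34 ± 0.07 and spastin, SPAST, by 0.17 ± 0.04, while FIGNL1 fell by 0.24 ± 0.06 and KATNBL1 by 0.26 ± 0.06.

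The stathmins bind tubulin dimers. STMN1 fell from 537 ± 12.3 to 465 ± 41.8 CPM (edgeR quasi-likelihood, Benjamini-Hochberg adjusted p = 0.00489), and STMN3 was not called. STMN2, the gene in the series title, was at 0.0696 to 0.120 CPM with β-alanine and 0.0455 to 0.204 CPM in controls, too low to test.

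**Figure D5:**
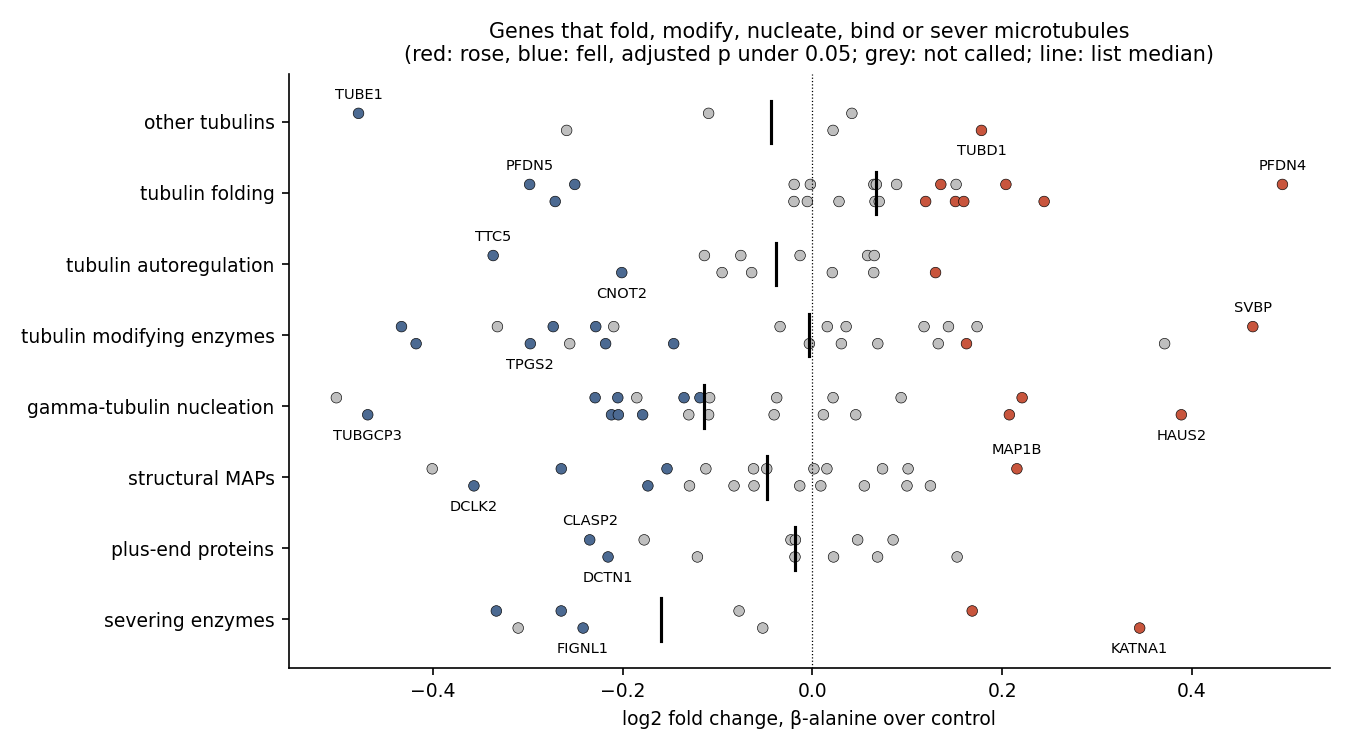
Log2 fold change of β-alanine over control for each tested gene of the 8 microtubule lists, with a point for each gene (red rose, blue fell, grey not called) and a line at the list median. Called genes lie on both sides of 0 in every list but the plus-end proteins, where both called genes, CLASP2 and DCTN1, lie below it.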

How the data were processed

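RNA of 3 β-alanine and 3 control libraries was sequenced, with each group read from the titles. Raw counts of 36458 gene symbols were deposited by the authors. Alignment by STAR 2.7.3a to GRCh38 and counting by featureCounts 2.0.1, after trimming by Trimmomatic 0.39, are named in the submitters' processing notes, beside bcl2fastq and DESeq2. Annotation, settings, strand use and read length were not stated in the sources used here. Without strand, reads of genes that overlap cannot be told apart. In GENCODE 29 exons of every member but TUBB2A overlap another gene: TUBA1A and TUBA1C each other, TUBA1B AC011603.2, TUBB AL662797.1, TUBB2B PSMG4, TUBB4B FAM166A and TUBB6 AFG3L2, besides those named for TUBA4A and TUBB3. Of the other genes named, TUBE1, PFDN2, CNOT2, TTC5, CNOT11, TPGS2, SVBP, KIAA0895L, HAUS2, TUBGCP4, EML4, DCTN1 and KATNA1 overlap another gene too. So do FIGNL1, TUBG1, STMN1, SIRT2, KRT18, KRT8, CDH1, NCAM1, SYP, YAP1 and TUBB4A. The genes named as most alike in pattern (CACNG7, GNAS, TPPP3, ETFA, HCG25 and TOLLIP) were not checked for overlap.

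Genes were filtered with filterByExpr, leaving 17331, and scaled by TMM. The test was the two-sided quasi-likelihood F test of edgeR 4.0.16 (robust, R 4.3.3) on all 6 libraries without covariates, with Benjamini-Hochberg adjustment over all tested genes at 0.05. CPM uses TMM-scaled totals, and levels per length divide it by the exonic union length in GENCODE 29. Pool sums and shares were compared by exact two-sided permutation. Replicates varied by a biological coefficient of 4.35% (common dispersion 0.00189). On data simulated for this comparison over 17109 genes the fit recovered 59.2% of genes changed 1.25-fold and 80.9% of those changed 1.5-fold, with 12 false calls among 172. Only 47 to 50 genes were changed at each fold there, and no simulated library stood apart as β-alanine library 1 did. The rates in the real data may therefore differ.

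Named were all members; up to 4 called genes of smallest p in each list; TTC5, TBCA, TUBG1, TTL and the stathmins; and the 3 genes most alike to the member sum and to TUBB3. TUBB4A, SIRT2 and the cell markers named were added after their values were seen. The members and lists were chosen with earlier results of these data known. Alternatives were other scalings, filters and tools (DESeq2 1.42.0, limma-voom 3.58.1), a replicate block, leaving out each library, and summing near-identical copies. Promoters and gene positions are RefSeq's for GRCh38.p14.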

Additional observations from a re-analysis of the deposited data

How the results depend on the processing

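TUBB and TUBB2A kept their direction and their call in the 16 alternatives run, with adjusted p up to 0.00734 and 0.00486 (edgeR unless another tool was the alternative). In 1 of these, with near-identical copies summed, TUBB2A was not tested by itself and its sum with TUBB2B stood for it. The number of members that rose was 1 with near-identical copies summed, where TUBB2A and TUBB2B form a single row. It was 1 to 2 when a library was left out (1 without control 3). The number that fell was 1 to 3 when a library was left out, 1 without β-alanine 2, β-alanine 3, control 1 or control 2. TUBA1A was called with a replicate block (-0.10, adjusted p = 0.0304), without β-alanine 1 (-0.15, range over left-out libraries -0.15 to -0.067) and as the TUBA1 sum (-0.11). TUBA1C takes that sum's -0.11, against 0.01 alone, because the sum is led by its copies. TUBA1B ranged from -0.22 to -0.11 and TUBB2B from 0.14 to 0.25 with a library left out, with calls lost as reported. The TUBA1A share difference ranged from -0.00554 to 0.469 points with a library left out and reversed without control 2 (-0.00554). Over the 8 lists 11 to 19 genes rose and 19 to 37 fell with a library left out, the lowest without β-alanine 2. With a library left out, the share of all genes called ranged from 17.0% without β-alanine 2 to 36.2% without β-alanine 1. It was 14.5% of 33260 genes with no low-count filter. Whether the replicate numbers pair the samples could not be told. In deviations from the group means, same-numbered libraries correlated at 0.0496, 0.00365 and 0.0716. Differently numbered ones ranged from -0.0718 to 0.00796. Deviations within a group are tied to each other, so these values cannot settle it. The block called 29.8% of genes, against 27.9% without it. With TUBB4A added to the β-tubulin pool, chosen after seeing the data, the share of TUBB in the beta pool, per length, differed by -4.31 points, and with no division by length by -3.07. TUBA4A had no value when 10 counts were required in every library. TUBA4A had 9 to 39 counts a library and TUBB3 42 to 136, the lowest among the members. With library totals 2 structural microtubule-associated proteins rose in place of 1, and 28.2% of all tested genes were called.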
